A study of Rattus norvegicus with 18 samples.

Results

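The transcripts of 29 genes of cholesterol and lipid synthesis were followed in the prefrontal cortex (PFC) of Sprague Dawley rat pups at postnatal day 14 (P14), in bulk RNA-seq of whole tissue. The genes were taken by symbol from a list of the pathway, chosen with earlier results of these data known. No threshold was used on the values of these genes. They comprised 18 enzymes of cholesterol synthesis, 5 regulators of the pathway, 1 sterol carrier and 5 genes of fatty acid and glycerolipid synthesis. They were 29 of the 32623 genes listed for each pup, and each of the 29 passed the filter on low counts that left 15703 genes for testing.

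Pups belonged to 3 groups of 6. Dams of the SAL group were gavaged with saline. Dams of the PNO group were gavaged with oxycodone (oxy), an opioid pain medicine, at 15 mg/kg/day from parturition to weaning, so that the pups met the drug only after birth, in the milk. Dams of the IUO group received oxy at 10 mg/kg/day for 5 days, were raised by 0.5 mg/kg/day over 10 days to 15 mg/kg/day, were then mated, and stayed on the drug until weaning. IUO pups therefore shared the exposure after birth with PNO pups and had exposure in utero in addition. The labels give neither the sex nor the dam of a pup. The p-values below measure the spread between these pups and count each pup as independent. The drug was given to dams, and whether pups of a group share a dam is not known. A difference between groups therefore cannot be told apart from a difference between litters.

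Cholesterol in the brain is made within the brain, because the lipoproteins of the blood do not cross the blood-brain barrier. Synthesis starts from acetyl-CoA, passes through mevalonate and the isoprenoids to squalene, which is folded into lanosterol and trimmed to cholesterol, and in the weeks after birth a large part of it goes into myelin. The SREBP transcription factors drive these genes when sterols are scarce: SCAP escorts SREBP from the endoplasmic reticulum to the Golgi, where it is cut and released, and the INSIG proteins hold the complex back when sterols are plentiful.

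Summed expected counts per pup ranged from 18381819 to 26084780, with a median of 22726306. The member with the fewest counts in any pup was Ebp, at 112, and the member with the most was Hmgcs1, at 22737. No pair of pups had identical values. The 7 neuronal markers checked were present in each pup. Markers of myelin, striatum and choroid plexus differed widely between pups of the same group. The summed level of the 10 myelin markers ranged from 1744 to 9391 counts per 1000000 (CPM) in SAL pups, from 2958 to 15080 in PNO pups and from 2225 to 5685 in IUO pups. The summed level of 7 striatal markers ranged from 142 to 1496 CPM in SAL pups, from 189 to 1262 in PNO pups and from 370.4 to 1808 in IUO pups. Markers of choroid plexus, 4 in number, ranged from 3.19 to 542 CPM in SAL pups, from 2.18 to 967 in PNO pups and from 0.473 to 252 in IUO pups. The part of these differences in the results for the members was not tested, other than with the myelin markers as a covariate. In bulk tissue, fewer cells of a type and less RNA per cell cannot be told apart.

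The members covered a wide range of levels. Levels of different genes were compared in transcripts per 1000000 (TPM), which is scaled to transcript length. The highest mean over the 18 pups belonged to Hmgcs1, which condenses acetyl-CoA units ahead of mevalonate, at 405 TPM (319 to 498). Next came Fdps, which makes farnesyl diphosphate, at 277 TPM (239 to 330), and Cyp51, which removes a methyl group from lanosterol, at 136 TPM (109 to 184). Msmo1, the following methyl oxidase, stood at 126 TPM (106 to 166) and Acly, which supplies cytosolic acetyl-CoA, at 97.0 TPM (67.0 to 139). These 5 genes held 49.0% of the summed TPM of the 29. At the other end, Hsd17b7, a ketosteroid reductase of the late pathway, had a mean of 11.2 TPM (6.63 to 16.3), the sterol carrier Stard4 9.18 TPM (4.97 to 15.9), and Lpin1, a phosphatidate phosphatase, 5.34 TPM (3.01 to 9.55). The plot of levels shows that neighbours in this order overlapped pup by pup, while Hmgcs1 and Fdps, which overlapped each other, stood apart from the rest.

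**Figure D1:**
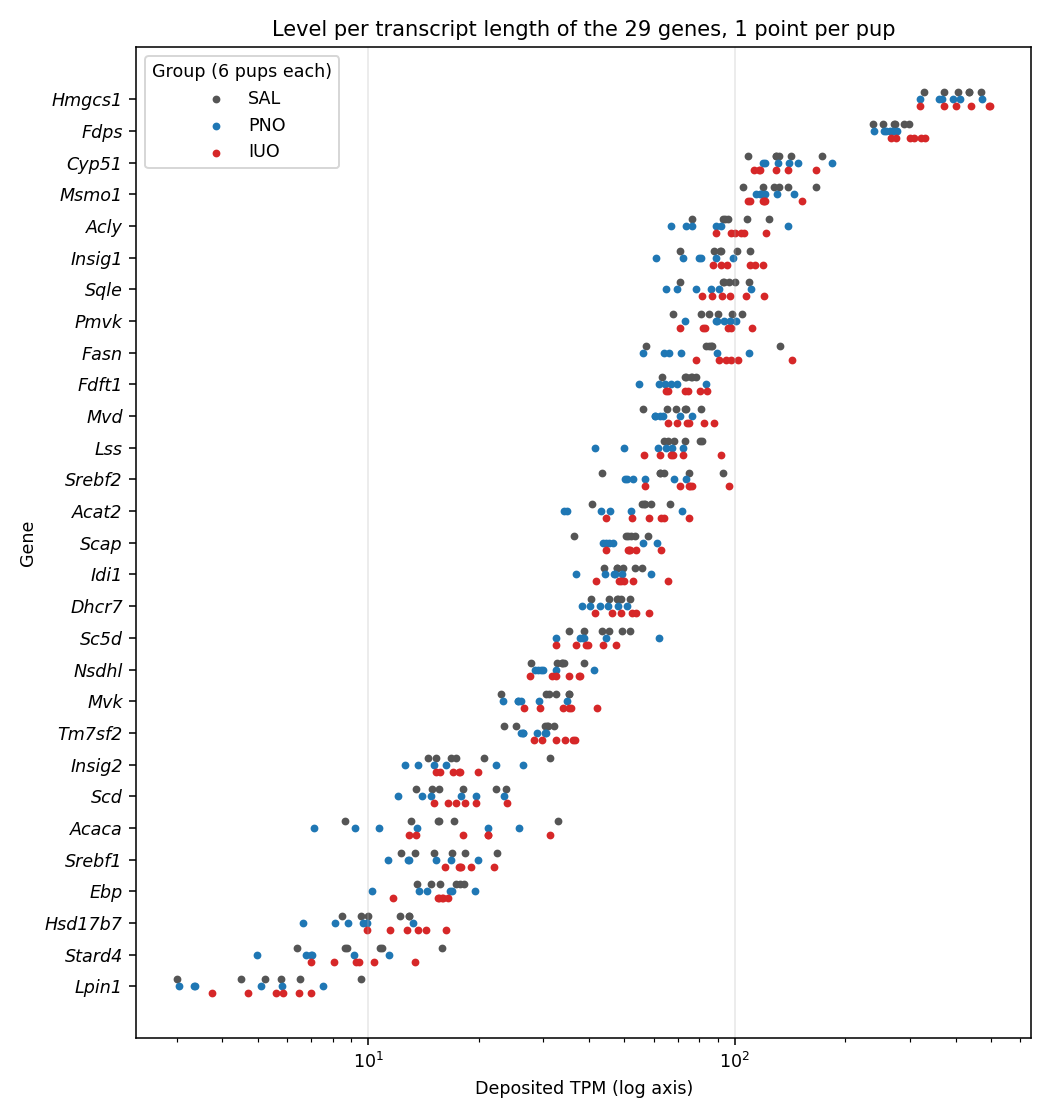
Deposited TPM (log axis) of each of the 29 genes, with 1 point per pup and the groups SAL, PNO and IUO (6 pups each) in different colours. Hmgcs1 and Fdps lie above every other gene, with means of 405 and 277 TPM, and Lpin1 lies lowest, with a mean of 5.34 TPM.

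Within a gene, pups were compared in CPM after TMM scaling of library size. The coefficient of variation within a group ranged from 5.11% to 39.0% over the 29 genes and 3 groups. Scap varied least, with a within-group SD of 0.10 on the log2 scale and a 1.32-fold span from the lowest to the highest of the 18 pups. Acaca, the acetyl-CoA carboxylase that commits acetyl-CoA to fatty acids, varied most, with an SD of 0.49 and a 3.44-fold span.

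The comparison of IUO with PNO asks what exposure before birth adds to exposure after birth. It gave the only members with an unadjusted p-value under 0.05 in edgeR's quasi-likelihood test, and none was called after Benjamini-Hochberg adjustment over all genes tested. Those 7 members were Hsd17b7, Insig1, Srebf2, Fasn, Acat2, Srebf1 and Mvk, and each had the higher level in IUO. The background share of genes below 0.05 before adjustment was 15.3%. With the higher level in IUO it was 6.14%, against 7 of 29 members (24.1%). Because the members were chosen with earlier results of these data known, these shares are descriptions and no test of the list. After adjustment 10 genes were called, 0.0637% of those tested, with 0 members among them. The median log2 fold change of the members was 0.10, against 0.00 for all genes tested, and 22 of 29 members had the higher fitted level in IUO. The smallest adjusted p-value of a member was 0.136.

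Among the regulators, Srebf2, the SREBP most tied to cholesterol synthesis, had a lowest, median and highest pup of 179, 187 and 204 CPM in PNO, of 182.5, 231 and 272 CPM in IUO, and of 161.5, 194 and 242 CPM in SAL. Of the IUO pups, 5 of 6 lay above the highest PNO pup, while IUO replicate 2 lay among the PNO pups. The log2 fold change between IUO and PNO was 0.28 (SE 0.10, 95% interval 0.07 to 0.48, unadjusted p = 0.0116, adjusted p = 0.200 by edgeR).

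Insig1, itself a target of SREBP and a brake on it, had pups at 104, 126 and 141 CPM in PNO, 131, 150.0 and 169 CPM in IUO, and 125, 128 and 161 CPM in SAL. The ranges of PNO and IUO overlapped, with 3 IUO pups above the highest PNO pup and 4 PNO pups below the lowest IUO pup. Its log2 fold change was 0.28 (SE 0.09, 95% interval 0.09 to 0.46, unadjusted p = 0.00563, adjusted p = 0.163 by edgeR).

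Srebf1, the SREBP most tied to fatty acid synthesis, was measured at 34.8, 38.7 and 47.7 CPM in PNO, 43.1, 48.3 and 52.9 CPM in IUO, and 33.1, 43.4 and 49.99 CPM in SAL. In this gene 4 IUO pups lay above every PNO pup, and the SAL pups spanned nearly the whole range of both groups. The log2 fold change was 0.23 (SE 0.10, unadjusted p = 0.0283, adjusted p = 0.273 by edgeR).

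The other 2 regulators had unadjusted p-values of 0.476 and 0.962. Insig2, the second INSIG, had pups at 8.44, 9.96 and 13.6 CPM in PNO, 8.90, 10.0 and 10.4 CPM in IUO, and 8.70, 10.1 and 15.2 CPM in SAL, with a log2 fold change between IUO and PNO of -0.10 (SE 0.14). Scap had pups at 123, 136 and 142 CPM in PNO, 118, 133.5 and 148 CPM in IUO, and 112, 127 and 137 CPM in SAL. Its log2 fold change was 0.00, and the 95% interval of -0.13 to 0.13 was the narrowest of the 29 genes.

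In the enzymes of cholesterol synthesis the difference was spread unevenly. Hsd17b7 had pups at 18.7, 23.5 and 28.9 CPM in PNO, 24.6, 31.6 and 36.0 CPM in IUO, and 22.7, 24.8 and 32.1 CPM in SAL. Of the 6 IUO pups 4 lay above the highest PNO pup, and 4 PNO pups lay below the lowest IUO pup. It had the largest fitted difference of the 29, a log2 fold change of 0.40 (SE 0.12, 95% interval 0.15 to 0.65, unadjusted p = 0.00332, adjusted p = 0.136 by edgeR), a 1.32-fold difference in level.

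At the entry of the pathway, Acat2, the thiolase that joins acetyl-CoA units, had pups at 30.4, 38.3 and 50.3 CPM in PNO, 35.9, 46.3 and 53.2 CPM in IUO, and 38.9, 43.2 and 47.3 CPM in SAL. PNO replicate 1 lay at the level of the higher IUO pups, and only 1 IUO pup exceeded it. The log2 fold change was 0.27 (SE 0.11, unadjusted p = 0.0276, adjusted p = 0.271 by edgeR). Mvk, which phosphorylates mevalonate, had pups at 16.9, 19.95 and 23.15 CPM in PNO, 19.3, 24.15 and 26.9 CPM in IUO, and 19.2, 21.7 and 24.5 CPM in SAL. Its log2 fold change was 0.22 (SE 0.10, unadjusted p = 0.0402, adjusted p = 0.306 by edgeR).

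The other mevalonate enzymes were Hmgcs1, the second kinase Pmvk, the decarboxylase Mvd, the isomerase Idi1, which balances the isoprenoid building blocks, and Fdps. Their log2 fold changes lay between -0.11 (Pmvk) and 0.10 (Mvd). The sign turned for Pmvk with the mean level of the myelin markers as a covariate (0.12) and with the transcript length slope of each pup as a covariate (0.08). It also turned for Hmgcs1 (-0.02) and Idi1 (-0.05) without IUO replicate 1, and for Idi1 with limma-voom. Mvd had 0.32 with the myelin covariate and 0.24 with the length covariate, with unadjusted p-values of 0.0400 and 0.0117. Hmgcs1 had pups at 734, 815 and 835 CPM in PNO, 652, 820.0 and 987 CPM in IUO, and 706, 784 and 918 CPM in SAL, so that IUO held both the lowest and the highest pups. Fdps had pups at 249, 286 and 313 CPM in PNO, 268.5, 300.1 and 320.5 CPM in IUO, and 212, 288 and 307 CPM in SAL. In neither gene did the fitted difference exceed its standard error (0.04, SE 0.09 for Hmgcs1 and 0.07, SE 0.09 for Fdps).

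Fdft1, which joins farnesyl units into squalene, Sqle, which makes its epoxide, and Lss, which closes the rings to lanosterol, had log2 fold changes between 0.06 and 0.15. Sqle came nearest to the threshold with 0.15 (SE 0.08, unadjusted p = 0.0667). Of the 8 enzymes that trim lanosterol, 5 had the lower fitted level in IUO (Cyp51, Msmo1, the demethylating dehydrogenase Nsdhl, Ebp and Sc5d) and 3 the higher (Hsd17b7 and the reductases Tm7sf2 and Dhcr7). Of these 8 only Hsd17b7 had an unadjusted p-value under 0.05. With the myelin covariate, the sign turned for Cyp51 (0.11), Msmo1 (0.13), Nsdhl (0.17) and Ebp (0.22), and the value of Nsdhl, near 0 to begin with, also turned in fits with another scaling or with single pups left out. Cyp51 had pups at 231, 307 and 346 CPM in PNO, 239.5, 251.1 and 344 CPM in IUO, and 224, 272 and 351 CPM in SAL, a log2 fold change of -0.20 (SE 0.12, unadjusted p = 0.107). Msmo1 had pups at 124, 146.5 and 165 CPM in PNO, 123, 128 and 171 CPM in IUO, and 112, 146 and 183.5 CPM in SAL, a log2 fold change of -0.12 (SE 0.11). In both genes 5 of 6 IUO pups lay below the PNO median, and IUO replicate 1 lay above it.

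The 5 genes of fatty acid and glycerolipid synthesis each had a positive fitted difference between IUO and PNO, but with the myelin covariate Acaca had -0.12 and Lpin1 -0.10, and with the length covariate Scd had -0.03. The value of Scd also turned negative without PNO replicate 2 and without IUO replicate 5. Fasn, the fatty acid synthase, had pups at 371, 432 and 559.7 CPM in PNO, 460.4, 552 and 743 CPM in IUO, and 391, 479.6 and 638 CPM in SAL. All 6 IUO pups lay above the PNO median, with PNO replicate 1 and SAL replicate 6 reaching as high as most of them. The log2 fold change was 0.34 (SE 0.12, 95% interval 0.08 to 0.59, unadjusted p = 0.0141, adjusted p = 0.213 by edgeR). Acaca had the second largest fitted difference of the 29, 0.39, but its standard error of 0.26 was the widest (unadjusted p = 0.159). Acly had pups at 207.5, 228 and 333 CPM in PNO, 245, 273 and 296 CPM in IUO, and 244, 253.5 and 277 CPM in SAL, a log2 fold change of 0.14 (SE 0.09). Lpin1 had pups at 6.55, 8.51 and 12.03 CPM in PNO, 7.13, 10.6 and 11.3 CPM in IUO, and 6.78, 9.86 and 14.5 CPM in SAL, a log2 fold change of 0.16 (SE 0.19). Scd, a stearoyl-CoA desaturase, had a log2 fold change of 0.05 (SE 0.12).

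**Figure D2:**
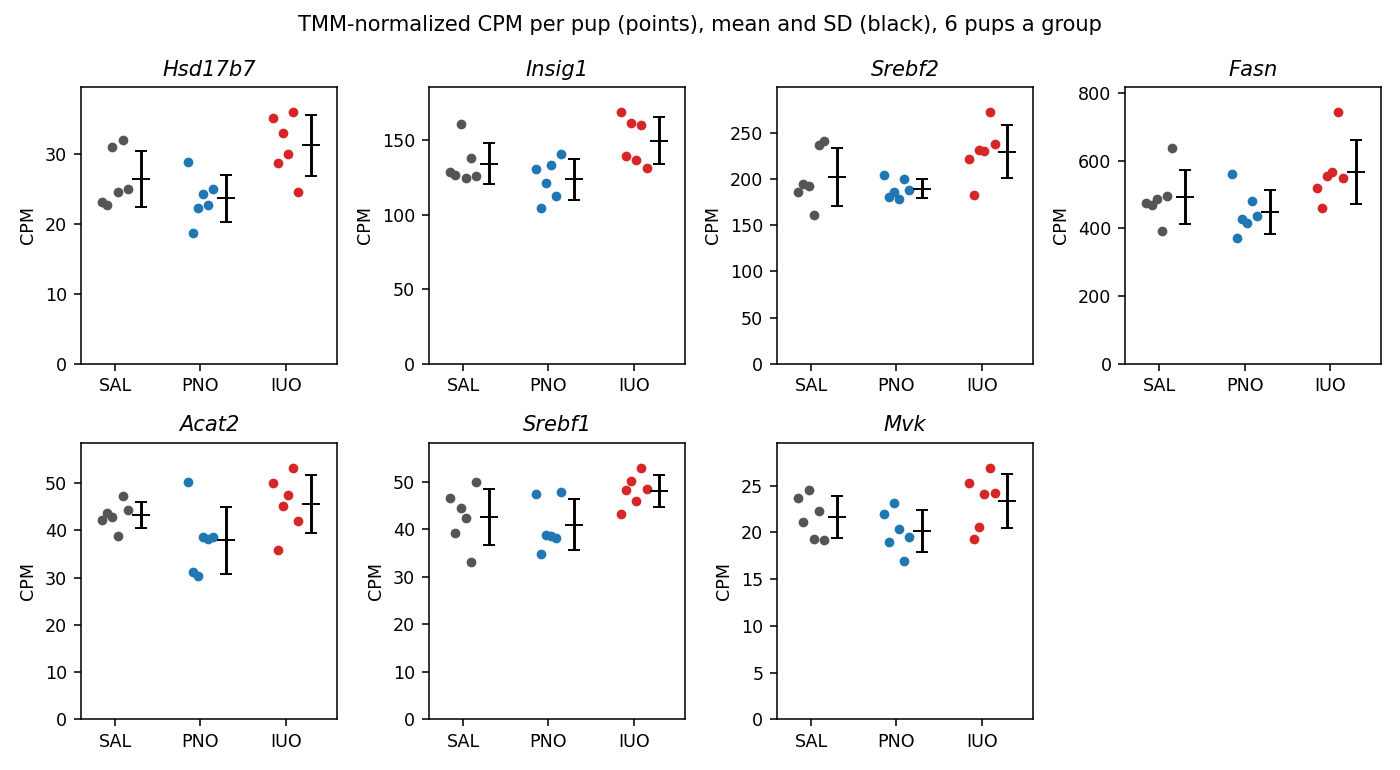
TMM-normalized CPM (axis from 0) of the 7 genes with an unadjusted p-value under 0.05 between IUO and PNO, with 1 point per pup and, in black, the mean and SD of the 6 pups of each group. In each gene the IUO mean is the highest of the 3 groups and the PNO mean the lowest, and the pups of the groups overlap.

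Whether these 7 differences exceeded the spread between pups depended on the test and on single pups. In exact two-sided permutation tests of log2 CPM over 6 against 6 pups, p was 0.0108 for Hsd17b7, 0.0130 for Srebf2, 0.0195 for Insig1, 0.0238 for Srebf1, 0.0260 for Fasn, 0.0606 for Mvk and 0.0758 for Acat2. limma-voom with sample quality weights called 12.9% of all genes after adjustment and 5.69% with the higher level in IUO. It called 5 of the 29 members (17.2%), all higher in IUO: Fasn (adjusted p = 0.0161), Srebf2 (0.0215), Acat2 (0.0316), Hsd17b7 (0.0403) and Acaca (0.0481). DESeq2 called 0 members, with a smallest adjusted p-value of 0.0506, for Hsd17b7. Over the 12 fits that each left out 1 pup, Hsd17b7, Insig1 and Srebf2 kept an unadjusted p-value under 0.05 in 12, Fasn in 11, Acat2 in 8, Srebf1 in 6 and Mvk in 4. The count of such members fell to 3 without IUO replicate 5, where 11.4% of all genes were below 0.05, and to 4 without PNO replicate 2, where 12% were. It rose to 10 without PNO replicate 1, where 21.4% were.

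Against SAL, neither group of oxy pups gave a member with an unadjusted p-value under 0.05 in edgeR's test. limma-voom gave 2 in PNO (Acat2 and Stard4, both lower), where 6.69% of all genes were below it, and 7 in IUO, where 17.3% were, namely Srebf2, Fasn, Srebf1, Acaca and Hsd17b7, which were higher, and Msmo1 and Sc5d, which were lower. The PNO comparison asks about exposure in the milk alone. The background share below 0.05 before adjustment was 4.5% there, and 0% of genes were called after it. By edgeR 0 members reached either, and DESeq2 and limma-voom also called 0 members after adjustment. The median log2 fold change of the members was -0.05, with 20 of 29 lower in PNO, against 0.00 for all genes tested. The values ran from -0.32 to 0.13. Stard4, which carries cholesterol between membranes, stood at the lower end, with pups at 12.6, 15.8 and 21.9 CPM in SAL, 9.44, 12.8 and 16.7 CPM in PNO and 11.8, 15.1 and 19.98 CPM in IUO. Of the 6 PNO pups 1 lay above the SAL median, and the log2 fold change was -0.32 (SE 0.16, 95% interval -0.65 to 0.01, unadjusted p = 0.0546, adjusted p = 0.912 by edgeR). Without PNO replicate 1, 4 members (Acat2, Stard4, Acly and Lss) were lower in PNO at unadjusted p-values under 0.05, in a fit where 8.99% of all genes were below it.

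The IUO comparison with SAL asks about exposure before and after birth together. The background share before adjustment was 6.88%, and 0% of genes were called after it. By edgeR 0 members reached either, and DESeq2 and limma-voom called 0 members after adjustment. The median of the members was 0.06, against -0.01 for all genes, and 21 of 29 had the higher fitted level in IUO. The 7 mevalonate enzymes each had a positive fitted value, between 0.02 and 0.11, and none of these values exceeded 2 standard errors. The sign turned for Hmgcs1 (to -0.02), Pmvk (to -0.08) and Idi1 (to -0.05) with single pups left out, and for Pmvk and Idi1 with limma-voom. Hsd17b7 again had the largest value, 0.24 (SE 0.12, 95% interval -0.01 to 0.49, unadjusted p = 0.0553, adjusted p = 0.748 by edgeR), followed by Acaca at 0.23 (SE 0.26), Fasn at 0.20 (SE 0.12), Srebf2 at 0.18 (SE 0.10), Srebf1 at 0.18 (SE 0.10), Tm7sf2 at 0.17 (SE 0.13) and Insig1 at 0.16 (SE 0.09). All 6 IUO pups lay above the SAL median of Insig1, and 5 of 6 lay above that of Hsd17b7, Srebf1, Srebf2 and Fasn. Without SAL replicate 6, Srebf2, Fasn and Srebf1 had unadjusted p-values under 0.05, against 8.77% of all genes in this fit, and between 0 and 2 members did with any other pup left out. The comparisons share the SAL, PNO or IUO pups pairwise, so the same pups enter each pair of them.

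The 95% intervals of the 29 members reached from -0.72 to 0.46 for PNO against SAL, from -0.43 to 0.78 for IUO against SAL, and from -0.44 to 0.95 for IUO against PNO. Acaca, Pmvk, Insig2 and Cyp51 set these ends. A p-value above the threshold does not show a member to be unchanged.

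**Figure D3:**
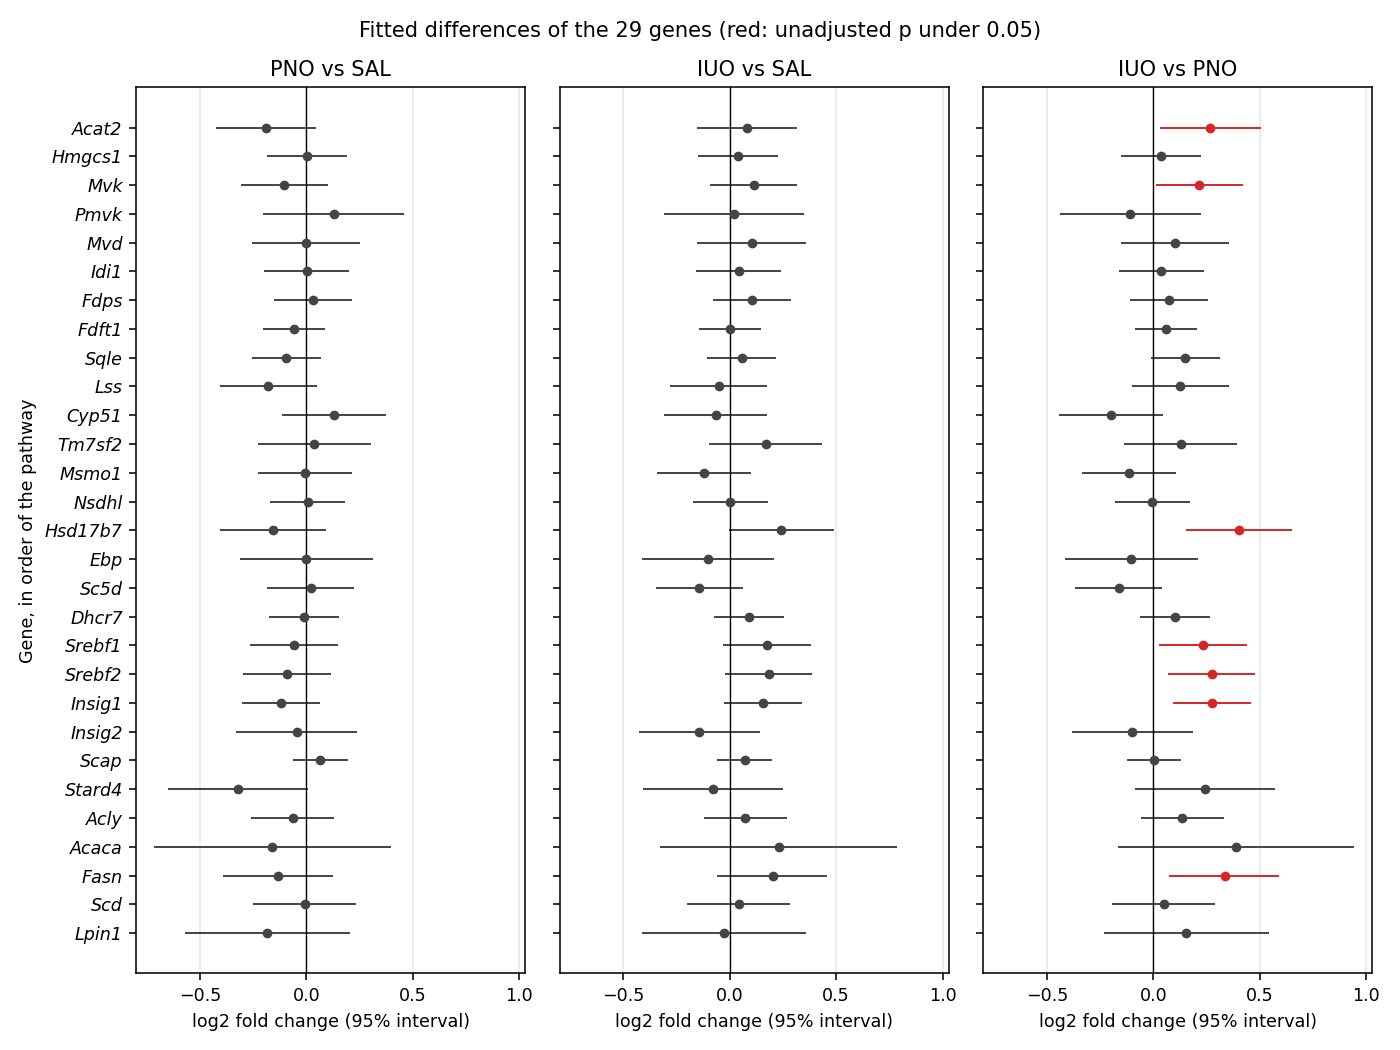
Log2 fold change of each of the 29 genes with its 95% interval in the 3 comparisons (edgeR), in order of the pathway from Acat2 to Dhcr7, followed by regulators, carrier and fatty acid genes. Red marks an unadjusted p-value under 0.05, which 7 genes reach between IUO and PNO, all to the right of 0, and 0 genes reach against SAL.

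Markers of several cell types differed between the same groups, in a fit where 15.3% of all genes were below 0.05 before adjustment and 9.14% were below it with the lower level in IUO. All 10 markers of myelin had the lower level in IUO than in PNO with unadjusted p-values under 0.05, and the smallest adjusted p-value was 0.0725. Their log2 fold changes lay between -2.27 and -0.94. All 6 markers of oligodendrocyte precursors and newly formed oligodendrocytes had the lower fitted level in IUO, 3 of them with unadjusted p-values under 0.05, and 3 of 7 astrocyte markers (S100b, Gfap and Aqp4) were lower at that level, with 2 of the 7 on the other side of 0. Of 6 microglial markers 4 had the higher fitted level in IUO and the median was 0.02, while Tmem119 was lower (log2 fold change -1.32). All 7 striatal markers had the higher fitted level in IUO, with a median of 0.85 and 0 below 0.05, and 0 of 7 neuronal markers were below it. All 4 choroid plexus markers had the lower fitted level in IUO, with a median of -1.32 and 0 below 0.05. Of 4 meningeal markers 3 had the higher fitted level in IUO and the median was 0.27, while Dcn was lower (-0.78, unadjusted p = 0.0471 by edgeR). The part of the markers other than myelin was not tested. The median of the myelin markers was -1.42 for IUO against PNO, 0.76 for PNO against SAL, and -0.68 for IUO against SAL. With the mean log2 CPM of the myelin markers as a covariate, the log2 fold change of Srebf2 between IUO and PNO was 0.08 in place of 0.28 and that of Fasn 0.14 in place of 0.34, while Hsd17b7 had 0.47, Insig1 0.37 and Mvk 0.33. Acat2 had 0.27 (unadjusted p = 0.0957) and Srebf1 0.23 (unadjusted p = 0.107), folds close to those without the covariate. In that fit 5.01% of all genes were below 0.05 before adjustment with the higher level in IUO, and so were 8 members: Insig1, Hsd17b7, Mvk, Fdft1, Tm7sf2, Idi1, Lss and Mvd. The smallest adjusted p-value among them was 0.308, for Insig1.

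The members were not alike in how they followed myelin from pup to pup. In all, 174 correlations between the 29 members and 6 measures of a pup were computed, and are given as descriptions over 18 pups of 3 groups. Cyp51 followed the myelin markers most closely, with Pearson's r = 0.79 and Spearman's rho = 0.81, r = 0.72 without the 2 pups farthest from the median, and r = 0.74, 0.97 and 0.51 within SAL, PNO and IUO. Msmo1 gave r = 0.69 (rho = 0.72, 0.69 without those 2 pups) and Ebp, which shifts a double bond of the sterol ring, r = 0.56 (rho = 0.61, 0.52 without them). Srebf2 ran the other way, with r = -0.74 (rho = -0.70, -0.81 without them). Fasn had r = -0.64 (rho = -0.62, -0.80 without them) and Acaca r = -0.62 (rho = -0.62, -0.84 without them). Within the groups, r of Srebf2 was -0.82 in SAL and -0.81 in IUO but -0.04 in PNO, and Fasn (-0.87, -0.82 and 0.24) and Acaca (-0.93, -0.96 and -0.01) had the same split. Over the 29 members r ranged from -0.74 to 0.79, with a median of -0.08.

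The marker sets of other cell types gave 7 correlations beyond 0.5 in either direction, all positive. With striatal markers Mvk had r = 0.56 (rho = 0.56, 0.72 without the 2 farthest pups), made up of 0.92 in SAL, 0.81 in PNO and -0.43 in IUO. With neuronal markers Srebf2 had r = 0.54 and Scap 0.52 (0.41 and 0.66 without the 2 farthest pups), and with astrocyte markers Sc5d had 0.65 and Scd 0.54 (0.28 and 0.41). With precursor markers Sc5d had 0.65 and Cyp51 0.58 (0.36 and 0.65). The larger values of Sc5d thus rested on the pups left out.

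A measure of the libraries moved with many of the members, and also with the myelin markers (r = -0.53 over 18 pups, rho = -0.59, -0.39 without the 2 farthest pups, and -0.94, 0.04 and -0.70 within SAL, PNO and IUO). For each pup, the deviation of log2 CPM of all genes tested from their mean over pups was regressed on log2 transcript length, and the slope says whether long transcripts were high in that pup relative to short ones. The slope was highest in SAL replicate 6 (0.158), PNO replicate 1 (0.088) and IUO replicate 5 (0.071), and lowest in PNO replicate 2 (-0.102), PNO replicate 3 (-0.089), PNO replicate 4 (-0.075) and SAL replicate 4 (-0.068). Its mean was 0.012 ± 0.077 in SAL, -0.027 ± 0.076 in PNO and 0.016 ± 0.033 in IUO (SD, n = 6).

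Acaca, with a listed transcript length of 6284 bases, followed the slope with r = 0.92 (rho = 0.94, 0.91 without the 2 pups farthest from the median) and with r = 0.97, 0.97 and 0.86 within SAL, PNO and IUO. Lpin1 (r = 0.86), Fasn (0.85), Insig2 (0.81), Stard4 (0.81), Acly (0.72), Acat2 (0.70) and Srebf2 (0.69) rose with it too. Pmvk, with 1092 bases, ran against it with r = -0.87 (rho = -0.80, -0.79 without those pups), as did Fdps (-0.70), Mvd (-0.67), Tm7sf2 (-0.62) and Msmo1 (-0.55). Length did not order the genes fully, since Insig2 and Acat2 have short listed transcripts of 991 and 1318 bases. The relations of Fdps, Mvd, Tm7sf2 and Msmo1 were less firm. Without the 2 farthest pups r was -0.44, -0.54, -0.42 and -0.39, in that order. Over the 18 pups rho was -0.44, -0.43, -0.39 and -0.54. In Fdps, Mvd and Tm7sf2 the relation held within SAL and PNO (r between -0.96 and -0.86) but not within IUO, where r was 0.06, 0.52 and 0.42. Hmgcs1 (0.05), Mvk (0.08), Insig1 (0.27) and Hsd17b7 (0.45) were closer to 0. Over the 29 members r exceeded 0.5 in 11 and lay under -0.5 in 5.

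With the slope as a covariate, chosen after the data were seen, the log2 fold changes between IUO and PNO were 0.35 for Hsd17b7, 0.26 for Insig1, 0.22 for Mvk, 0.21 for Fasn, 0.19 for Srebf2, 0.19 for Acat2 and 0.18 for Srebf1, each still higher in IUO. In that fit 16.5% of all genes were below 0.05 before adjustment, and so were 11 members, of which 9 were higher in IUO (the 7 above without Srebf1, together with Mvd, Tm7sf2 and Fdps) and Insig2 and Sc5d were lower, and 0 were called after adjustment. Between IUO and SAL, where 5.88% of all genes were below 0.05 with the higher level in IUO, 6 members (Fasn, Srebf2, Acaca, Tm7sf2, Fdps and Hsd17b7) were, all higher in IUO, and 0 were called. The source of the slope was not tested.

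**Figure D4:**
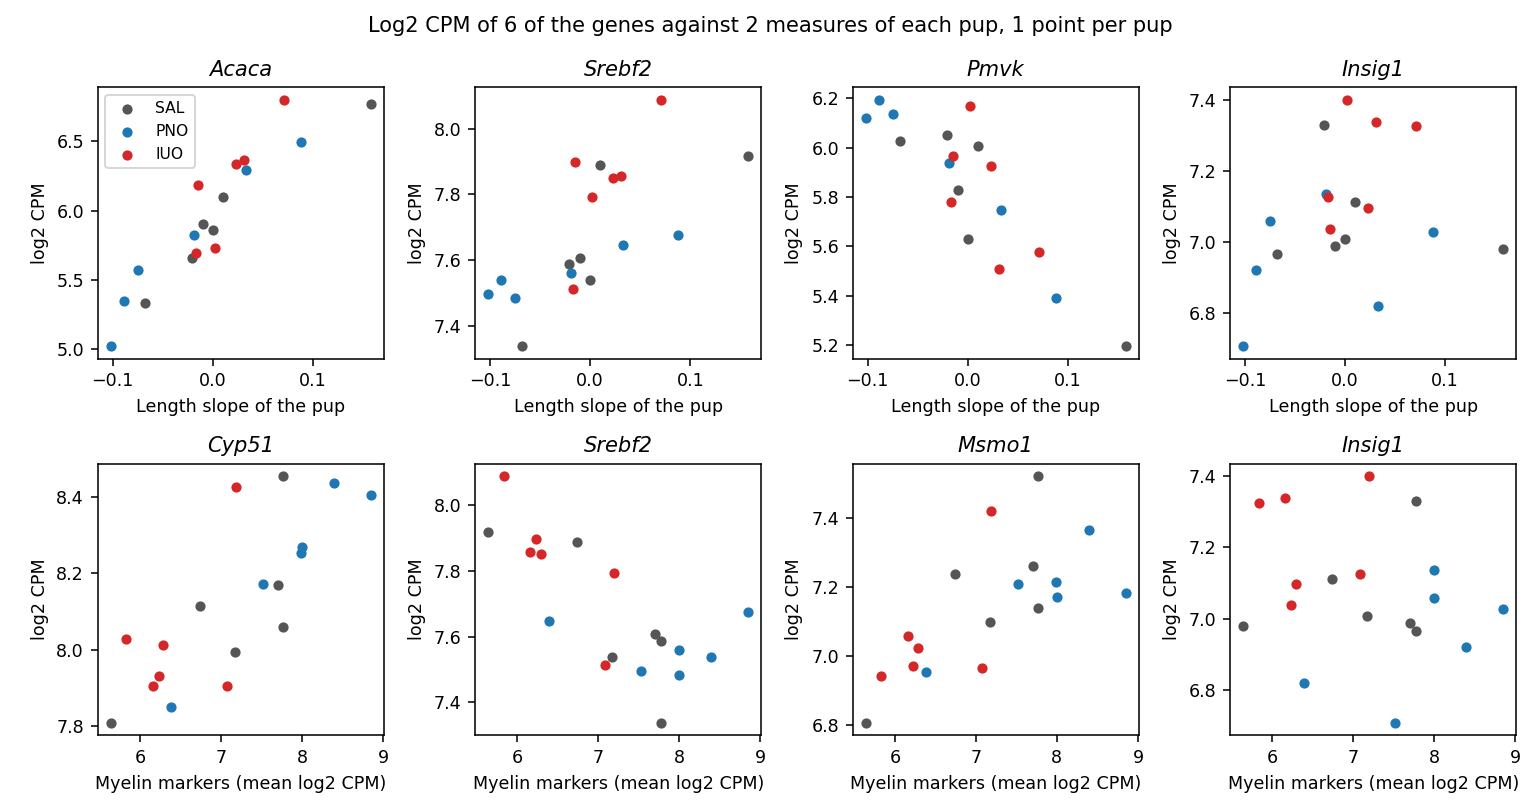
Log2 CPM of 6 genes in each of the 18 pups, coloured by group, against the length slope of the pup (upper row) and against the mean log2 CPM of 10 myelin markers (lower row). Acaca climbs with the slope (r = 0.92) and Pmvk descends (r = -0.87), Cyp51 climbs with myelin (r = 0.79) and Srebf2 descends (r = -0.74), and Insig1 follows neither closely.

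Over pups the members varied partly together and partly in opposite directions. Of the 406 pairs, 32.8% had r over 0.5 over the 18 pups and 26.6% had r under 0, with a median of 0.33. After group means were subtracted the median was 0.35, and after the slope was removed as well it was 0.44, with 43.8% of pairs over 0.5 and 18.0% under 0. The first and second principal components of the 29 genes held 35.0% and 33.3% of their variance, and after both removals the first held 50.8% and the second 13.3%. The points share libraries and the TMM scaling, and these values carry no test. The same shares over pairs of other genes are not given, so the values do not set this list apart.

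Several pairs stood out for their steadiness across groups. Acaca and Fasn, consecutive enzymes of fatty acid synthesis, had r = 0.93 with group means subtracted and r = 0.96, 0.94 and 0.92 within SAL, PNO and IUO. Cyp51 and Msmo1, which act near each other on lanosterol, had r = 0.92 (0.99, 0.88 and 0.92 within groups), and Acat2 and Sqle r = 0.92 (0.85, 0.95 and 0.93). Hmgcs1 and Insig1 had r = 0.71 (0.82, 0.96 and 0.66). Pairs of regulators ranged from r = -0.14 (Srebf1 and Scap) to r = 0.74 (Srebf2 and Scap), on the same scale with group means subtracted. Insig2 had r = 0.56 with Srebf1 and r = 0.53 with Srebf2, while Srebf1 and Srebf2 had r = 0.10, Srebf2 and Insig1 r = 0.15, and Insig1 and Insig2 r = -0.11. Srebf2 followed Fasn (r = 0.86) more than Hmgcs1 (r = 0.35). At the other extreme, Pmvk and Lpin1 had r = -0.89.

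**Figure D5:**
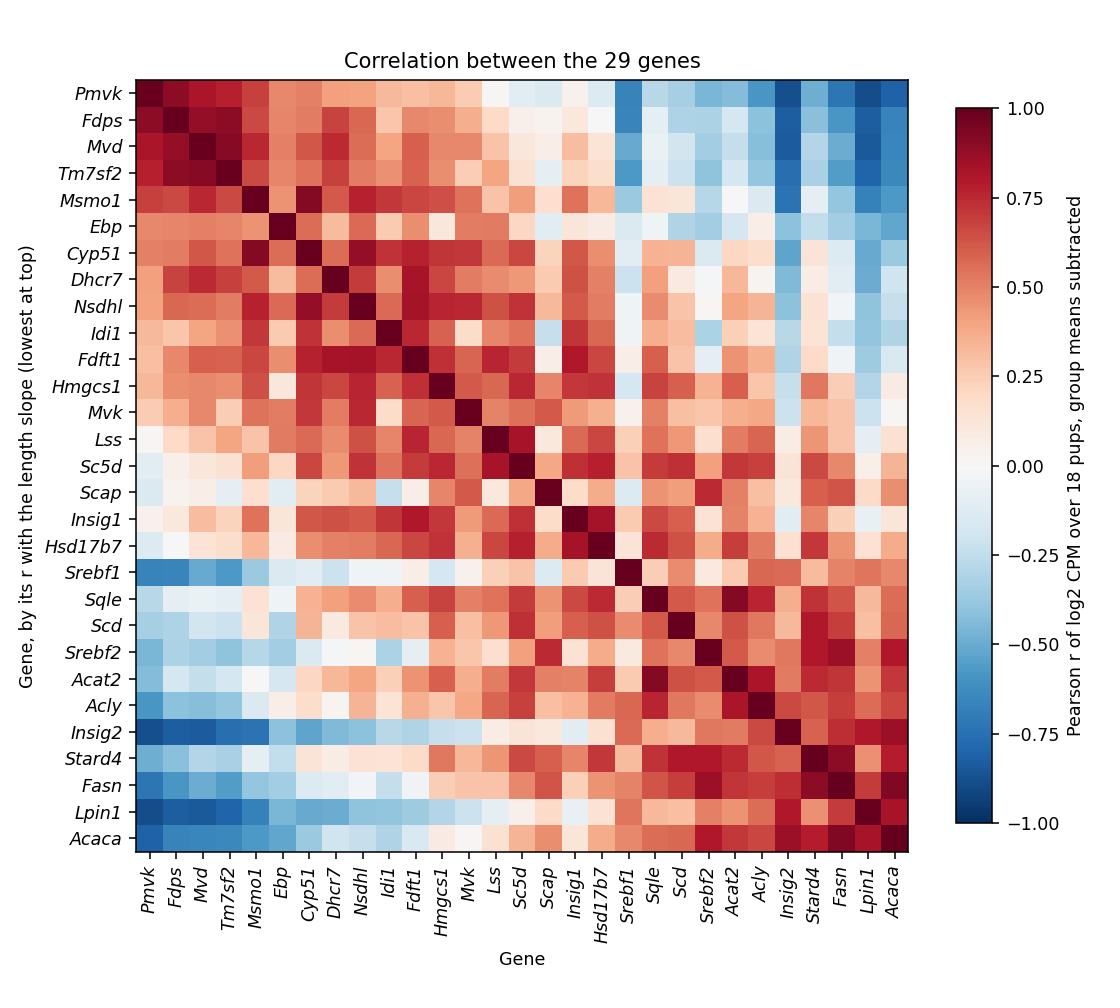
Pearson correlation of log2 CPM over 18 pups between each pair of the 29 genes, with group means subtracted (colour scale from -1 to 1), the genes ordered by their correlation with the length slope from Pmvk (-0.87) to Acaca (0.92). A block from Pmvk to Mvk and a block from Sqle to Acaca are each positively correlated within themselves, and their outer corners are negative, reaching -0.89 between Pmvk and Lpin1.

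With group means subtracted, the mean correlation with the other 28 members was highest for Sc5d, a late sterol desaturase (0.47), followed by Hmgcs1 (0.45), Hsd17b7 (0.43), Sqle (0.42), Fdft1 (0.41) and Insig1 (0.41), and lowest for Lpin1 (-0.05), Insig2 (-0.02) and Pmvk (-0.02). Without that subtraction Sqle, Hsd17b7 and Hmgcs1 led with 0.42 each, and Sc5d had 0.30. Genes outside the list were ranked by their correlation with the mean of the standardised members, with group means subtracted, over 18 pups. Gna12, a G protein subunit, stood first (r = 0.83), then Fads1, a fatty acid desaturase (0.81), Slc22a23 (0.77), Zdhhc9 (0.75), Tmem170a (0.73), Selplg (0.73), RGD1559896 (0.72), Rasgrp3 (0.72) and Ppard (0.70). Without the subtraction r was lower for each of these, with 0.51 for Gna12, 0.31 for Fads1, 0.66 for Slc22a23 and 0.03 for Selplg. By group, in the order SAL, PNO, IUO, it was 0.89, 0.88 and 0.75 for Gna12 and 0.83, 0.89 and 0.75 for Fads1.

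Promoters are shown for members with a high mean correlation with the other members from pup to pup. RefSeq's promoter table for GRCr8 (250 bases before to 50 after the start of a gene) held 23 of the 29 members. The 4 printed are those with the highest mean correlation among the 23 with group means subtracted, and for Sc5d that place depends on the subtraction. Capitals mark, on either strand, the letters GGGCGG of the Sp1 box, the letters CCAAT of the NF-Y box and the letters CACGTG of an E-box.
Sc5d, chr8:51538228-51538527, strand -: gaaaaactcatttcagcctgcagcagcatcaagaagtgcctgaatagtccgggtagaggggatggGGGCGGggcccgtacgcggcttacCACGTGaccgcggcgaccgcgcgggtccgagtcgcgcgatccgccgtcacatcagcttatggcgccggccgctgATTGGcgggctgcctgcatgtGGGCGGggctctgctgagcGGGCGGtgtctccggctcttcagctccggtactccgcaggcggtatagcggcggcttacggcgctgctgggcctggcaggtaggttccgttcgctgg
Hmgcs1, chr2:53382054-53382353, strand +: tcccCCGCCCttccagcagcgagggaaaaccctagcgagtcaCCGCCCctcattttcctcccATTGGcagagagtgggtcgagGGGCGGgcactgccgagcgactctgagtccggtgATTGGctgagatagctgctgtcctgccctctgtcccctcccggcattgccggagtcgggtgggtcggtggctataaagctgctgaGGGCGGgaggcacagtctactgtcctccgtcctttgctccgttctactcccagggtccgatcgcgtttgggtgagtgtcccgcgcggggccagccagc
Hsd17b7, chr13:84722705-84723004, strand -: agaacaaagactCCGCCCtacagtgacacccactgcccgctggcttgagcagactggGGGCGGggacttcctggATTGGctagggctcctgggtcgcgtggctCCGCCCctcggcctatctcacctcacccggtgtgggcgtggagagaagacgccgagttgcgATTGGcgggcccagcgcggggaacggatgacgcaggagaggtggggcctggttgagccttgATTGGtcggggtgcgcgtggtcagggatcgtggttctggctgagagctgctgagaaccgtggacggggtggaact
Insig1, chr4:8057720-8058019, strand -: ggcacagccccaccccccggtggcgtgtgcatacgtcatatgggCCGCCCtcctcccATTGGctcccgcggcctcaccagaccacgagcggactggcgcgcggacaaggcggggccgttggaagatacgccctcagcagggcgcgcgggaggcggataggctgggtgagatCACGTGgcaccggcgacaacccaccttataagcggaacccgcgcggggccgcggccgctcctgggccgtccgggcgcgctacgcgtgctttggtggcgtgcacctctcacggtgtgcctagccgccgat

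Sc5d held the Sp1 letters at 3 positions, the NF-Y letters at 1 and the E-box at 1. Hmgcs1 held the Sp1 letters at 4 positions and the NF-Y letters at 2, Hsd17b7 held both at 3 positions each, and Insig1 held all of them at 1 position each. Among the 23 members with a promoter, 18 (78.3%) held the NF-Y letters, against 37.5% of the 33469 promoters in the table, and 18 held the Sp1 letters, against 33.1%. The E-box was in 3 of 23, (13.0%: Insig1, Sc5d and Scap), against 6.42% of all promoters. The sterol regulatory element was searched as TCACNCCAC and as the looser TCACNCNAC, which every match of the former also meets, and neither was in a member's window. They were in 1.12% and 2.48% of all promoters. A match of letters is a description and not a site, and the missing match says only that these letters are not in the 300 bases.

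The genes that use or prepare the products of the pathway were taken from 5 lists set beside the members. Of all genes tested, 9.14% were lower in IUO than in PNO before adjustment at 0.05. In the synthesis of the galactolipids, sphingolipids and plasmalogens of myelin, 6 of 10 genes had the lower level in IUO than in PNO (unadjusted p-values under 0.05) and 0 the higher. They included Ugt8, which adds galactose to ceramide (log2 fold change -1.26, SE 0.36, adjusted p = 0.126 by edgeR), and Fa2h, a fatty acid hydroxylase (-1.12, SE 0.34, adjusted p = 0.141). In fatty acid elongation, desaturation and activation, 5 of 15 were lower and 0 higher, among them Elovl7 (-0.86, SE 0.21, adjusted p = 0.102), Elovl1 (-0.72, SE 0.23, adjusted p = 0.168) and Fads1 (-0.21, SE 0.07, adjusted p = 0.173). In cholesterol efflux, storage and turnover, 4 of 14 were lower and 0 higher: Npc2, a carrier of cholesterol in lysosomes (-0.29, SE 0.09, adjusted p = 0.160), Stard3 (-0.21, SE 0.08), Ch25h (-0.47, SE 0.20) and Mylip (-0.35, SE 0.16). Among 8 genes of the other branches from farnesyl diphosphate and 7 of the 8 listed for SREBP processing and sterol sensing, 0 had an unadjusted p-value under 0.05 in any comparison. No gene of these lists was called after adjustment by edgeR, and the myelin markers given above, which were lower in the same comparison, were not tested for their part in them.

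Against SAL, 0 genes of the 5 lists had an unadjusted p-value under 0.05 in IUO. In PNO, where 1.89% of all genes were below 0.05 with the higher level than in SAL, 4 of the 54 listed genes tested were: Npc2 (log2 fold change 0.26, SE 0.09), Ch25h (0.47, SE 0.20), Elovl7 (0.52, SE 0.21) and Sptlc1, a subunit of serine palmitoyltransferase (0.14, SE 0.06). Each had an adjusted p-value of 0.912 by edgeR. All 10 myelin markers also had the higher fitted level in PNO than in SAL (median 0.76), and their part in these values was not tested.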

How the data were processed

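The files deposited by the authors list, pup by pup, 32623 genes with expected count, TPM and transcript length. An expected count is an estimate in which reads that match several genes are divided between them, so it need not be whole. TPM was deposited by the authors as scaled to 1000000 in each pup. It served only to order genes by level. The aligner, genome build and quantification program are not given in the sources used here. Groups came from the sample titles.

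Expected counts were rounded to whole numbers, filtered with filterByExpr and scaled by TMM, and all 18 pups were fitted in 1 edgeR 4.0.16 quasi-likelihood model in R 4.3.3, with two-sided tests and Benjamini-Hochberg adjustment over 15703 genes. Log2 CPM used a prior count of 2, and intervals of 95% use the residual and prior degrees of freedom. Alternatives were DESeq2 1.42.0, limma 3.58.1 (voom with quality weights), other scalings and filters, fits on the 12 pups compared, a replicate block, covariates and leaving out each pup. Correlations and exact tests used scipy 1.17.1 under Python 3.11.15 (pandas 2.3.3, numpy 2.4.6), and plots matplotlib 3.10.9. The fits were tested on simulated data, and the outcome is not reported here.

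The members and lists were chosen with earlier results of these data known. Lowest, median and highest pups are given for members with an unadjusted p-value under 0.05, the 5 highest and 3 lowest by TPM, and the regulators. Of the 10 genes most like the members, 1 is not reported here. RefSeq sequences are of GRCr8.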

Additional observations from a re-analysis of the deposited data

Results flagged for a closer look

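Within each group of 6 pups, the gap between the lowest or highest pup and its neighbour was compared with the range of the group, on log2 CPM, for each of the 29 genes. In 87 such groups 6 gaps were flagged, where chance alone flags about 4.35. IUO replicate 1 was far above the other IUO pups in Cyp51 (log2 CPM 8.43, next 8.03) and in Msmo1 (7.42, next 7.06), a pair that varied together over the pups. SAL replicate 6, the pup with the steepest length slope, was far below the other SAL pups in Mvd (5.60, next 6.07) and in Dhcr7 (5.82, next 6.09). In PNO, replicate 5 was far below the others in Nsdhl (5.63, next 5.95), and replicate 4 was far above them in Dhcr7 (6.32, next 6.08).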

How the results depend on the processing

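The 7 members with an unadjusted p-value under 0.05 between IUO and PNO were higher in IUO under each alternative run. Members called after adjustment numbered 0 in each comparison under each alternative run, except 5 between IUO and PNO with limma-voom. Members with an unadjusted p-value under 0.05 between PNO and SAL numbered 1 without TMM scaling (4.86% of all genes), 2 with limma-voom (6.69%), 1 with the myelin covariate (3.21%), and 0 to 4 with a pup left out. Between IUO and SAL they numbered 7 with limma-voom (17.3% of all genes), 3 with the myelin covariate (7.37%), 6 with the transcript length covariate (12%), and 0 to 3 with a pup left out. Between IUO and PNO they numbered 12 with limma-voom (11 of them higher in IUO; 34.0% of all genes), 11 with the length covariate (16.5%), and 3 to 10 with a pup left out (11.4% to 21.4%), against 7 (15.3%). Of all genes tested, DESeq2 called 1 in PNO against SAL. In IUO against SAL the calls numbered 49 by DESeq2, 43 with limma-voom, 14 with the length covariate and 0 to 1 with a pup left out. Between IUO and PNO they numbered 436 by DESeq2, 2028 with limma-voom, 19 without TMM scaling, 97 with the length covariate, 2 with the myelin covariate, 72 on the 12 pups alone and 1 to 95 with a pup left out (1 without PNO replicate 4, 95 without PNO replicate 5), against 10. The causes of these shifts were not tested. The median log2 fold change of the members kept its sign under each alternative but moved by over 1.5 times with a pup left out. For PNO against SAL it ran from -0.08 (without PNO replicate 1) to -0.01 (without PNO replicate 2, -0.02 without PNO replicate 5), for IUO against SAL from 0.03 (without IUO replicate 5, 0.04 without SAL replicate 6) to 0.09 (without IUO replicate 2), and for IUO against PNO from 0.06 (without PNO replicate 5) to 0.12 (without IUO replicate 2). With all pups it also moved that far for PNO against SAL without TMM scaling (-0.09), with the myelin covariate (-0.07) and with the length covariate (-0.03), for IUO against SAL with limma-voom (0.03), and for IUO against PNO with the myelin covariate (0.17). The median correlation between members was 0.44 with the length slope removed, against 0.33. The length covariate and the removal of the slope were chosen after seeing the data.

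The replicate numbers of the titles are shared between groups. Deviations of same-numbered pups correlated between -0.30 and 0.49 over the comparisons, and in no comparison did each pair exceed 0.1, so the numbers were not taken as pairs. Nor did each pup correlate best with its own number. With a replicate block, 8 members had an unadjusted p-value under 0.05 between IUO and PNO (16.5% of all genes), and 6 genes were called, against 10. Against SAL the block gave 2 such members in IUO (7.44% of all genes) and 1 in PNO (4.62%).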

Other observations

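Some pups stood at the ends of the ranges of many members. In IUO, replicate 2 was the lowest in 18 of 29 genes, and the highest was replicate 5 in 16 and replicate 1 in 12. In SAL, replicate 6 was the lowest in 12 genes and the highest in 8, replicate 4 the lowest in 10 and replicate 3 the highest in 13. In PNO, replicate 1 was the highest in 15 genes, and the lowest was replicate 2 in 12 and replicate 5 in 10.

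Close relatives of 2 members are listed apart, and how reads were divided between them is not given in the sources used here. Scd2, a paralog of Scd, had a mean of 584 TPM, against 17.9 TPM for Scd. Its log2 fold change between IUO and PNO was -0.25 (SE 0.10, unadjusted p = 0.0242, adjusted p = 0.259 by edgeR), against 0.05 (SE 0.12) for Scd. Acat2l1, named as a relative of Acat2, had a mean of 19.6 TPM, against 54.1 TPM for Acat2, and a log2 fold change between IUO and PNO of -0.03 (SE 0.12), against 0.27 (SE 0.11) for Acat2. These genes were chosen after their values were seen.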
